A study of Mus musculus with 54 samples.

Results

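The genes described here build the contacts between epithelial cells and set their apical and basal sides. They are 32 genes of tight junctions, desmosomes, the plaque of adherens junctions and apical polarity complexes, out of 20036 genes in the expression table. They were taken as a list by function, with earlier results of these data known. All 32 were present. All 32 also reached the level required for testing, a TPM of 1 or more in 2 or more libraries, as did 14416 genes in all. TPM is a share of a library's transcripts after division by gene length, so it can be compared between genes. Pkp1 reached that level only through PGCLC libraries and was listed at 0 in both libraries of 12 of the 27 groups.

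Poly(A) RNA of mouse cells was sequenced at 3 stages: embryonic stem cells (ESC), epiblast-like cells (EpiLC) and cells resembling primordial germ cells, taken on day 2 (PGCLC). EpiLC are made from ESC and model the epiblast, and PGCLC are made from EpiLC and model the first germ cells together with the mesodermal cells that arise beside them. At each stage there were 9 lines with 2 libraries each, which gives 27 groups and 54 libraries, with 2.16 to 26.73 M mapped reads per library (median 8.65 M). The strain is given as C57BL/6 X 129/SvJ for every sample. The groups are wild type (WT), lines labelled as knockouts of Ovol1, Ovol2 or Ovol3 (Ovol1KO, Ovol2KO, Ovol3KO), a line labelled TKO, 3 lines with an Ovol2 transgene (Ovol2a/2b-Tg, Ovol2a-Tg, Ovol2b-Tg) and 1 with an E-cadherin transgene (Cdh1-Tg). The labels do not spell out TKO, do not give the genetic background or promoter of the transgenic lines, and do not say whether a line is 1 clone or whether its 2 libraries came from separate cultures. P-values therefore measure the spread between these libraries, which may be technical. With 2 libraries a group, no permutation test can pass the threshold, so the tests rest on the spread pooled over 18 libraries of a stage.

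The cell type tag of 8 libraries differed from the stage in their titles: the PGCLC pair of Ovol2a-Tg and all 3 pairs of Cdh1-Tg. The titles were followed, and the stage markers of these libraries went with the titles. The summed level of 8 primitive streak and mesoderm markers was 1736 to 1871 TPM in the PGCLC pair of Ovol2a-Tg and 1881 to 1934 in that of Cdh1-Tg, against 1774 to 1863 in WT PGCLC and 1.89 to 2.91 in WT EpiLC. The Ovol2b-Tg EpiLC pair differed by little more than counting noise: its chi-square divided by the degrees of freedom was 1.05, against a median of 2.41 over 27 pairs. The PGCLC pair of Ovol2a-Tg had the highest value, 10.9, so its 2 libraries differed beyond counting noise. For a given spread this value grows with depth, and these libraries held 26.73 and 23.55 M reads. It therefore does not rank the pairs by their spread. Levels of the targeted genes did not separate all lines from WT. Ovol2 stood at 11.3 and 6.98 TPM in WT PGCLC, 4.74 and 6.68 in those labelled Ovol2KO and 1.52 and 0.835 in TKO, and in EpiLC labelled Ovol2KO it was above WT (33.7 and 34.6 against 9.51 and 12.7 TPM). Ovol3 stood at 9.84 and 7.25 TPM in PGCLC labelled Ovol3KO, against 9.39 and 9.66 in WT. Ovol1 stood at 0.95 and 1.35 TPM in PGCLC labelled Ovol1KO, against 1.02 and 0.325 in WT. The labels do not say which part of each gene was deleted, and a gene-level value does not show it. Names ending in KO and TKO below therefore mean the libraries labelled so. Ovol2 was at 900 and 867 TPM in Ovol2a-Tg PGCLC, 345 and 296 in Ovol2b-Tg, with Ovol2a/2b-Tg above both, and Cdh1 was at 562 and 563 in Cdh1-Tg against 312 and 320 in WT.

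Tight junctions seal the space between epithelial cells near the apical side: occludin, tricellulin and the claudins span the membrane, and ZO proteins and cingulin tie them to actin. Desmosomes link the keratin network of neighbouring cells through desmosomal cadherins, plakophilins, plakoglobin and desmoplakin, while adherens junctions link actin through E-cadherin and the catenins. The Crumbs, Par and Scribble complexes define the apical and basolateral domains. Cells of the epiblast are epithelial, and those that pass through the primitive streak give up these contacts in an epithelial to mesenchymal transition. Ovol proteins are zinc finger transcription factors known to hold back that transition in several epithelia, in part by repressing Zeb1, whose product binds E-boxes.

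Promoter sequence was compared for the members that fell furthest in TKO PGCLC. The 4 with the largest fall were Crb3, Rab25, Ocln and Pkp3, and RefSeq windows (build GRCm38.p6) were found for Crb3, Rab25 and Ocln. Lsr is added as a contrast, chosen after its values were seen, because it stood at 85.7 TPM or more in PGCLC of every line. Each line gives the 250 bases before the annotated start, 5′ to 3′ on the gene's strand, with the E-box CAGGTG, read on either strand, and the Ovol core CCGTTA in capitals.
Crb3 (chr17:57061951-57062200, + strand): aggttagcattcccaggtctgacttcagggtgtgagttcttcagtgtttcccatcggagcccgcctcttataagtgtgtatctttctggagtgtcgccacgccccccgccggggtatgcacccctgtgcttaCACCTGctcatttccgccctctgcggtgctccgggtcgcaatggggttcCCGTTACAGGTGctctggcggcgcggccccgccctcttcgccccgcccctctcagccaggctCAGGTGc
Rab25 (chr3:88548280-88548529, - strand): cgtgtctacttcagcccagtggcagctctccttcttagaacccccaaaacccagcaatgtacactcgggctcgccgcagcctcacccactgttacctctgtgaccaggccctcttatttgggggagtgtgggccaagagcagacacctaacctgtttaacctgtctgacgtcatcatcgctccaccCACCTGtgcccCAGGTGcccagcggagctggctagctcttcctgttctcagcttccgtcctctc
Ocln (chr13:100552719-100552968, - strand): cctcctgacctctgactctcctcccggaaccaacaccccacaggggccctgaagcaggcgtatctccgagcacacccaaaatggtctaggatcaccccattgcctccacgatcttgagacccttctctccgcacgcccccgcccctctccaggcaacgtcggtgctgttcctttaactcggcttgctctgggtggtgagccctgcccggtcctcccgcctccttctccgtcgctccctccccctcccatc
Lsr (chr7:30973470-30973719, - strand): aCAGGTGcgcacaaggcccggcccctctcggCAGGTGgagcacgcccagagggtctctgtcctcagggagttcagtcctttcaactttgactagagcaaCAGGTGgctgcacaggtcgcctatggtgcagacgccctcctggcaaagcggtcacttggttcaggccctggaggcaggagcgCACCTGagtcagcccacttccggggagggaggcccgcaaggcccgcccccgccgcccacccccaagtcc

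The Crb3 window held 3 E-boxes and 1 CCGTTA, which lies directly before an E-box. Rab25 had 2 E-boxes, Ocln 0 and Lsr 4. Over all 32851 windows of this length, 17.2% held at least 1 CAGGTG on either strand, 0.247% held 3 or more, and 2.18% held CCGTTA. Of 19 members with a window (the first listed one for each gene), 7 held the E-box, 1 held CCGTTA and 0 held the Grainyhead-like motif AACCGGTT, which 0.116% of all windows held. The E-box was in 5 of the 9 windows of members called lower in TKO PGCLC and in 2 of the 10 others. These are matches of letters, and their part in the falls was not tested. The window of Lsr held the most E-boxes among the 4 shown. Lsr did not fall in TKO PGCLC, but in ESC it was lower than WT in Ovol2KO (-2.19 ± 0.18) and TKO (-1.23 ± 0.18).

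**Figure D1:**
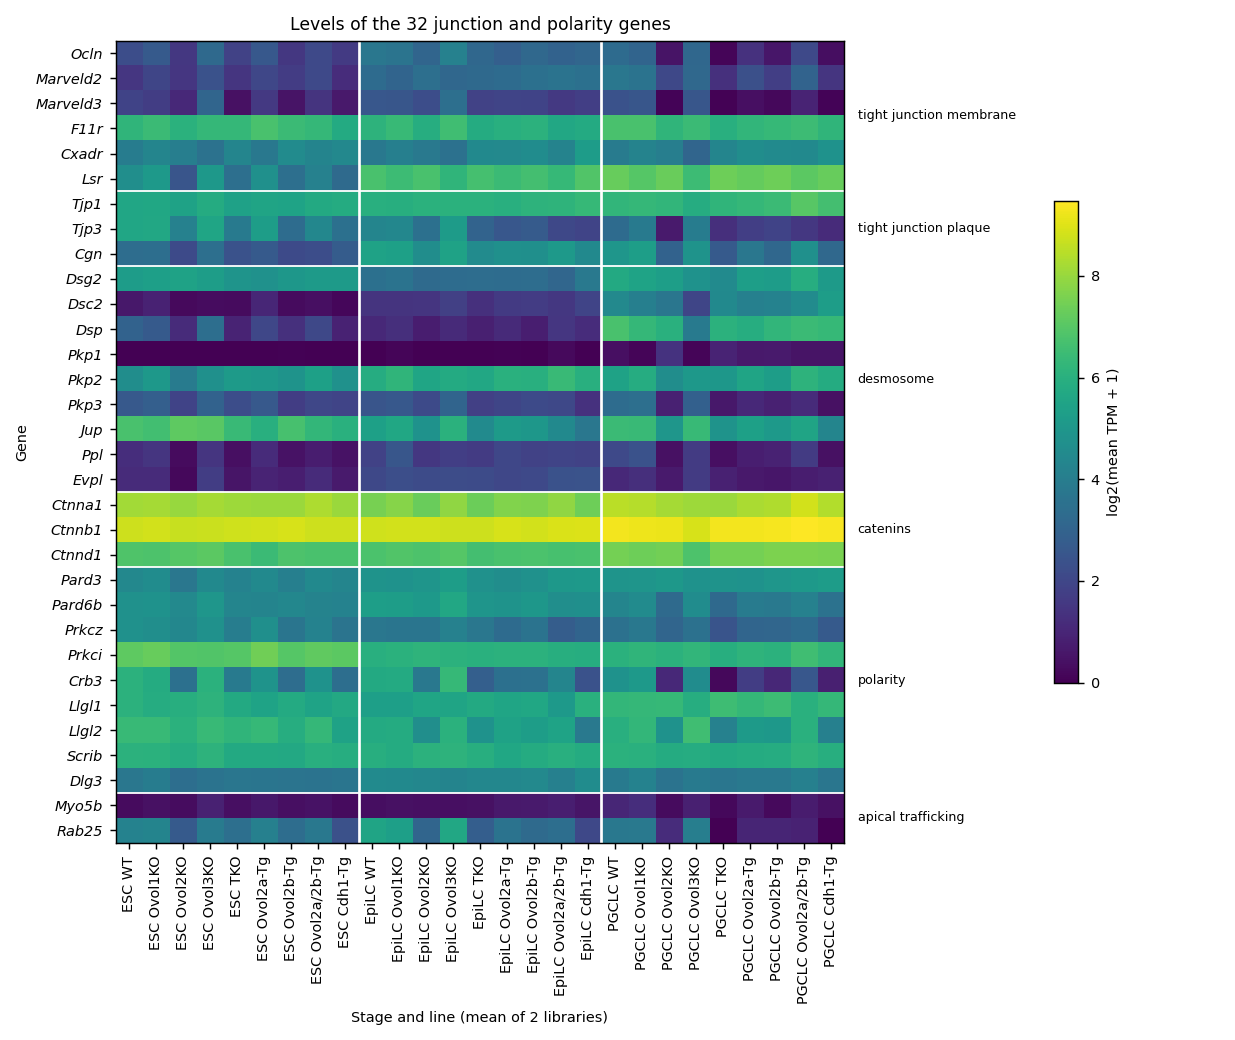
Levels of the 32 genes (rows, grouped by role) in the 27 groups (columns, by stage and line); colour is log2(mean TPM + 1) over 2 libraries. Catenins are bright throughout, Lsr turns from low in ESC to high in EpiLC and PGCLC, and Dsp is high in most PGCLC groups. Crb3, Rab25 and Ocln are dark in PGCLC of TKO and Cdh1-Tg and nearly as dark in Ovol2KO and Ovol2b-Tg.

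The levels of the members covered a wide range. Ctnnb1 (beta-catenin) was the most abundant member in WT PGCLC, at 624 and 645 TPM, and Ctnna1 (alpha-catenin) followed at 360 and 353. Lsr (the lipolysis-stimulated receptor of tricellular contacts) stood at 150 and 153 TPM and Crb3 (the small Crumbs protein of the apical membrane) at 25.1 and 29.1. Members also differed in how far they moved over the 27 group means: the range was 6.13 log2 units for Crb3, 5.96 for Dsp, 5.67 for Rab25 and 4.90 for Lsr, against 0.49 for Scrib and 0.78 for Ctnnb1. Among the members, the pattern most like that of Crb3 was the pattern of Rab25 (Pearson r = 0.94 on log2(TPM + 1) over 27 group means), and Ocln was most like Marveld3 (r = 0.93). These groups share lines and stages, so the r values only describe the groups.

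In WT cells the list was rebuilt in part between ESC and EpiLC, with 6 members called higher and 6 lower. A gene is called here when limma gave an adjusted p under 0.05 (Benjamini-Hochberg, all 14416 genes) and the log2 fold change, on log2(TPM + 1), was 1 or more in size. Among all genes 9.33% were called higher and 11.2% lower, so the members' 6 and 6 of 32 were somewhat above that share. The risers were mostly tight junction genes. Cgn (cingulin) rose from 9.71 and 9.10 TPM in ESC to 42.6 and 43.3 in EpiLC, by 2.08 ± 0.15 (log2, SE; limma adjusted p = 2.47e-14). Lsr rose from 23.0 and 26.8 to 110 and 102 TPM, by 2.05 ± 0.12 (limma adjusted p = 1.79e-16). Neither gene's ESC values overlapped its EpiLC values. Marveld2 (tricellulin, the occludin relative of 3-cell corners) rose by 1.81 ± 0.17, Ocln (occludin) by 1.51 ± 0.24, Rab25 (a small GTPase of apical recycling) by 1.37 ± 0.30 and Pkp2 (plakophilin 2) by 1.25 ± 0.11. Of the 6 genes that fell, 3 were desmosomal, 2 were the atypical protein kinase C genes of polarity and 1 was a tight junction plaque gene. Dsp (desmoplakin) fell by 1.90 ± 0.21, Dsg2 (desmoglein 2) by 1.77 ± 0.13 and Jup (plakoglobin) by 1.36 ± 0.11. Tjp3 (ZO-3) fell by 1.30 ± 0.22, from 45.9 and 49.5 TPM to 16.9 and 20.8, Prkci by 1.15 ± 0.09 and Prkcz by 1.07 ± 0.16. With quantile scaling Prkcz changed by -0.88 and was no longer called.

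From EpiLC to PGCLC, 4 members were called higher and all 4 were desmosomal. This share of the list is close to the 13.5% of all genes called higher. Dsp rose from 0.912 and 1.35 TPM to 119 and 92.6, by 5.64 ± 0.21 (limma adjusted p = 2.29e-22). Dsc2 (desmocollin 2) rose by 3.05 ± 0.22, Dsg2 by 2.29 ± 0.13 and Jup by 1.05 ± 0.11, which was 0.90 and not called with quantile scaling. For Dsp and Dsg2 the level thus went down from ESC to EpiLC and up again to PGCLC, where the PGCLC values (Dsg2 51.9 and 54.6 TPM) lay above those in ESC (41.5 and 32.6). Rab25 fell by 1.77 ± 0.30, from 47.3 and 42.7 TPM to 16.7 and 9.20, and Tjp3 by 1.01 ± 0.22, again a share close to that of all genes (7.62% called lower). The count of 2 lower was 4 with a pseudocount of 0.1, 5 with quantile scaling and 4 on recovered reads, and without WT PGCLC replicate 1 the fall of Tjp3 was 0.73 and not called. WT PGCLC still held 312 and 320 TPM of Cdh1. Because these are bulk samples, fewer cells of a type and less RNA per cell cannot be told apart here or in any comparison below.

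In PGCLC, 12 members were lower in Ovol2KO than in WT and 14 in TKO, and 0 were higher in either. Of all genes, 4.07% were called lower and 4.11% higher in Ovol2KO, and 4.95% and 5.58% in TKO. The share of members called lower stood well above that of all genes. Because the list was chosen with earlier results of these data known, this contrast only describes the list. The median log2 fold change of the members was -0.64 in Ovol2KO and -0.72 in TKO, against 0.04 and 0.03 over all tested genes. All 12 members lower in Ovol2KO were also lower in TKO, and both comparisons use the same WT libraries. At an unadjusted p under 0.05 in limma, 1 member was higher in Ovol2KO and 3 in TKO. With limma-voom on recovered reads 1 member was called higher in Ovol2KO and 0 in TKO. The member higher in Ovol2KO at an unadjusted p was Pkp1 (plakophilin 1), at 1.96 and 1.33 TPM against 0.282 and 0.351 in WT. Pkp1 entered the tests only through PGCLC libraries in which it is high, those of Ovol2KO among them, so its values are a description and no p is given for it.

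Tight junction membrane proteins divided into those that fell and those that did not. Ocln stood at 7.13 and 10.5 TPM in WT PGCLC, 0.828 and 0 in Ovol2KO and 0 and 0.172 in TKO. It fell by 2.84 ± 0.27 in Ovol2KO (limma adjusted p = 2.04e-06) and by 3.16 ± 0.27 in TKO (limma adjusted p = 4.32e-07), and the groups did not overlap. Marveld3, also an occludin relative, stood at 2.89 and 5.50 TPM in WT, 0.137 and 0 in Ovol2KO and 0 and 0.0571 in TKO. It was hardly detected in either line and fell by 2.24 ± 0.25 and 2.29 ± 0.25. Marveld2 went from 11.1 and 13.6 TPM in WT to 3.26 and 3.03 in Ovol2KO and 1.37 and 1.62 in TKO, falling by 1.68 ± 0.18 and 2.41 ± 0.18. Lsr, which recruits Marveld2 to 3-cell corners, did not fall: it stood at 160 and 158 TPM in Ovol2KO and 168 and 167 in TKO. F11r (the adhesion molecule JAM-A) stood at 108 and 107 TPM in WT, 71.8 and 71.5 in Ovol2KO and 66.1 and 58.6 in TKO, lower in every library but short of the fold required. Cxadr (the coxsackievirus and adenovirus receptor) was at 15.8 and 13 TPM in WT, 17.3 and 13.9 in Ovol2KO and 20.6 and 17.1 in TKO.

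The plaque proteins divided in the same manner. Tjp1 (ZO-1), present in tight and adherens junctions, stood at 77.4 and 70.3 TPM in WT, 72.3 and 74.4 in Ovol2KO and 78.1 and 66.2 in TKO, and these ranges overlapped. Tjp3, the ZO protein found mainly in epithelia, went from 7.06 and 10.9 TPM in WT to 0.725 and 0.510 in Ovol2KO and 1.85 and 0.930 in TKO. It fell by 2.60 ± 0.31 in Ovol2KO (limma adjusted p = 1.99e-05) and by 2.06 ± 0.31 in TKO (limma adjusted p = 0.000111). Cgn went from 30.5 and 31.0 TPM to 7.08 and 6.60 in Ovol2KO and 5.53 and 5.30 in TKO, with falls of 2.02 ± 0.16 and 2.31 ± 0.16. For Tjp3 and Cgn every library of both lines was below every WT library.

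Among polarity genes, Crb3 had the largest log2 difference of the whole list in both lines on the scale with 1 added to the TPM, which understates the fall of scarcer members such as Marveld3 and Rab25. From 25.1 and 29.1 TPM in WT PGCLC it went to 0.762 and 1.48 in Ovol2KO and 0 and 0.316 in TKO, that is, from 69 and 107 reads to 4 and 2, and to 0 and 2. The fall was 3.75 ± 0.24 in Ovol2KO (limma adjusted p = 6.35e-08) and 4.61 ± 0.24 in TKO (limma adjusted p = 6.07e-09). Llgl2, one of the mammalian Lgl proteins of the basolateral domain, fell by 1.13 ± 0.11 and 1.78 ± 0.11, from 60 and 62.3 TPM to 26.3 and 28.6 in Ovol2KO and 17.8 and 16.4 in TKO. Its paralogue Llgl1 did not fall, at 74.3 and 76.6 TPM in WT and 90.8 and 89.9 in TKO. Pard6b, a Par6 adaptor, fell by 1.05 ± 0.21 and 1.11 ± 0.21. Prkcz (atypical protein kinase C zeta) was lower by 1.09 ± 0.19 in TKO, at 3.83 and 5.03 TPM against 9.96 and 11, and stood at 8.29 and 6.60 in Ovol2KO without a call, whereas its paralogue Prkci stood at 66.5 and 64.3 TPM in WT and 59.1 and 61.4 in TKO. Pard3, Scrib and Dlg3, scaffolds of the Par and Scribble complexes, were called in neither line: Pard3 stood at 29.3 and 28.2 TPM in WT and 29.0 and 27.7 in TKO, and Scrib at 65.6 and 65.3 in WT and 54.4 and 51.2 in TKO.

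Rab25 stood at 16.7 and 9.20 TPM in WT PGCLC, 1.04 and 1.61 in Ovol2KO and 0 in both TKO libraries. The log2 difference on the scale with 1 added was -2.54 ± 0.40 in Ovol2KO (limma adjusted p = 0.00022). Against the level that 3 reads per library would give, TKO was at least 9.56-fold lower than WT, an estimate that covers counting error only. Myo5b, a motor that works with Rab11 and Rab25 vesicles, was at 1.01 and 0.994 TPM in WT and 0.116 and 0.193 in TKO, levels close to the lower limit of testing, and was not called.

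Desmosomal members behaved unevenly. Pkp3 (plakophilin 3) went from 9.27 and 8.88 TPM in WT PGCLC to 0.579 and 1.12 in Ovol2KO and 0.509 and 0.541 in TKO, falling by 2.46 ± 0.26 and 2.72 ± 0.26 (limma adjusted p = 5.82e-06 and 1.24e-06). Ppl (periplakin, a linker to intermediate filaments) fell by 1.70 ± 0.24 in each. Jup, which serves both desmosomes and adherens junctions, fell by 1.49 ± 0.09 and 1.58 ± 0.09, from 84.3 and 88.5 TPM to 29.5 and 31.0 in Ovol2KO and 27.4 and 29.1 in TKO. Dsg2 fell by 1.21 ± 0.11 in TKO, to 22.7 and 22.1 TPM from 51.9 and 54.6, and was at 40.3 and 37.8 in Ovol2KO without a call. Dsp was at 119 and 92.6 TPM in WT, 63.0 and 65.3 in Ovol2KO and 65.7 and 66.9 in TKO, lower in every library without a call. Dsc2, at 21.9 and 20.2 TPM in WT, was at 21.9 and 21.2 in TKO. In Ovol2KO the mean of Dsc2 was 12.1 TPM, a change of -0.76 ± 0.21 (limma adjusted p = 0.016), short of the fold required. Pkp2 stood at 44.6 and 41.5 TPM in WT, 24.6 and 22.7 in Ovol2KO and 33.7 and 29.0 in TKO, lower in every library without a call, and Evpl (envoplakin) was at 1.12 and 1.13 TPM in WT and 0.847 and 0.8 in TKO.

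The catenins, which join cadherins to actin, were called in neither line. Ctnnb1 stood at 624 and 645 TPM in WT, 581 and 575 in Ovol2KO and 627 and 633 in TKO. Ctnna1 stood at 360 and 353 TPM in WT, 291 and 288 in Ovol2KO and 256 and 271 in TKO, lower in every library by less than the fold required. Ctnnd1 (p120-catenin) stood at 187 and 170 TPM in WT and 183 and 176 in TKO. In the same libraries Cdh1 went from 312 and 320 TPM in WT to 42.3 and 35.4 in Ovol2KO and 24 and 17.2 in TKO.

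**Figure D2:**
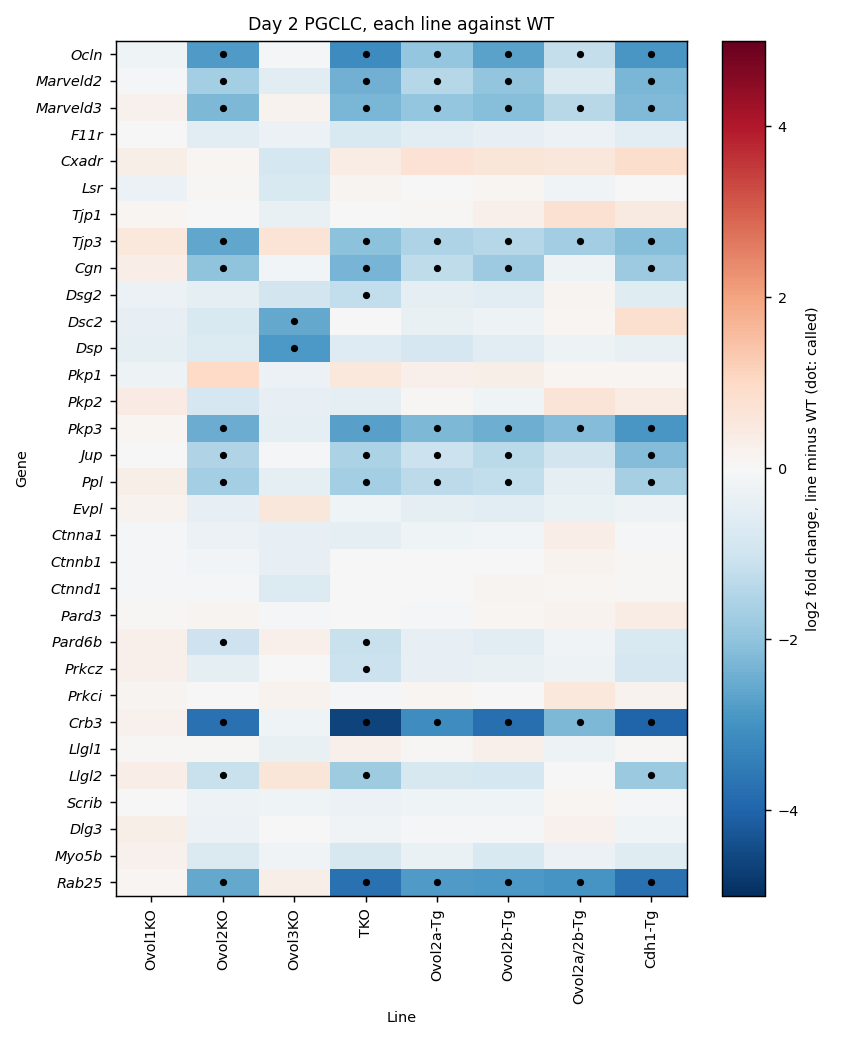
Log2 fold change on log2(TPM + 1) of each of the 32 genes (rows) in PGCLC of 8 lines against WT (columns), blue lower and red higher than WT; dots mark called changes. The 6 genes Ocln, Marveld3, Tjp3, Pkp3, Crb3 and Rab25 are dotted in Ovol2KO, TKO and all 4 transgenic lines, while Dsp and Dsc2 are dotted only in Ovol3KO.

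Other junction and polarity genes moved in both directions in the same comparisons. Of 60 such genes outside the list, 50 were tested: 9 were lower and 6 higher in Ovol2KO, and 10 were lower and 8 higher in TKO. The largest falls in Ovol2KO were those of 3 claudins: Cldn6 fell by 6.66 ± 0.46, Cldn7 fell by 5.53 ± 0.24 and Cldn4 fell by 5.26 ± 0.30. In TKO Cldn7 fell by 6.34 ± 0.24, Cldn6 fell by 6.31 ± 0.46 and Ap1m2 (a subunit of the epithelial sorting adaptor AP-1B) fell by 5.72 ± 0.27. Rises included paralogues of members that fell. Crb2, a Crumbs gene like Crb3, rose by 1.89 ± 0.16 in Ovol2KO and 2.14 ± 0.16 in TKO, from a mean of 11.9 TPM in WT to 46.8 and 56.0. Pard6g, a Par6 gene like Pard6b, rose by 1.62 ± 0.18 in each, and Cgnl1, the paralogue of Cgn, by 1.38 ± 0.20 and 1.73 ± 0.20. Magi3, a membrane scaffold, rose by 1.76 ± 0.15 in TKO.

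Markers of other cell types moved with these falls, and their part in the result was not tested. The 8 primitive streak and mesoderm genes summed to 1774 to 1863 TPM in WT PGCLC, 2350 to 2628 in Ovol2KO and 2534 to 2553 in TKO. The 5 endoderm genes summed to 18.7 to 26.9 TPM in WT, 40.0 to 42.7 in Ovol2KO and 58.8 to 65.2 in TKO. The summed level of 6 trophoblast-list genes, which include Hand1 of mesoderm, was 126 to 190 TPM in WT PGCLC, 1056 to 1247 in Ovol2KO and 1344 to 1507 in TKO, with 2 of 6 at 0 in each group. For 6 fibroblast genes it was 16.0 to 23.4 TPM in WT, 97.4 to 108 in Ovol2KO and 265 to 277 in TKO, with 1 of 6 at 0 in each. The mesenchymal regulators of the Zeb, Snai and Twist families (6 genes, 0 at 0) summed to 61.3 to 82.6 TPM in WT, 178 to 195 in Ovol2KO and 235.2 to 235.4 in TKO. Germ cell markers (6 genes, 0 at 0) summed to 149 to 152 TPM in WT, 47.2 to 74.9 in Ovol2KO and 38.2 to 46.4 in TKO. Surface ectoderm keratins and Trp63 (4 genes) summed to 2.36 TPM or less in each of these groups.

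**Figure D3:**
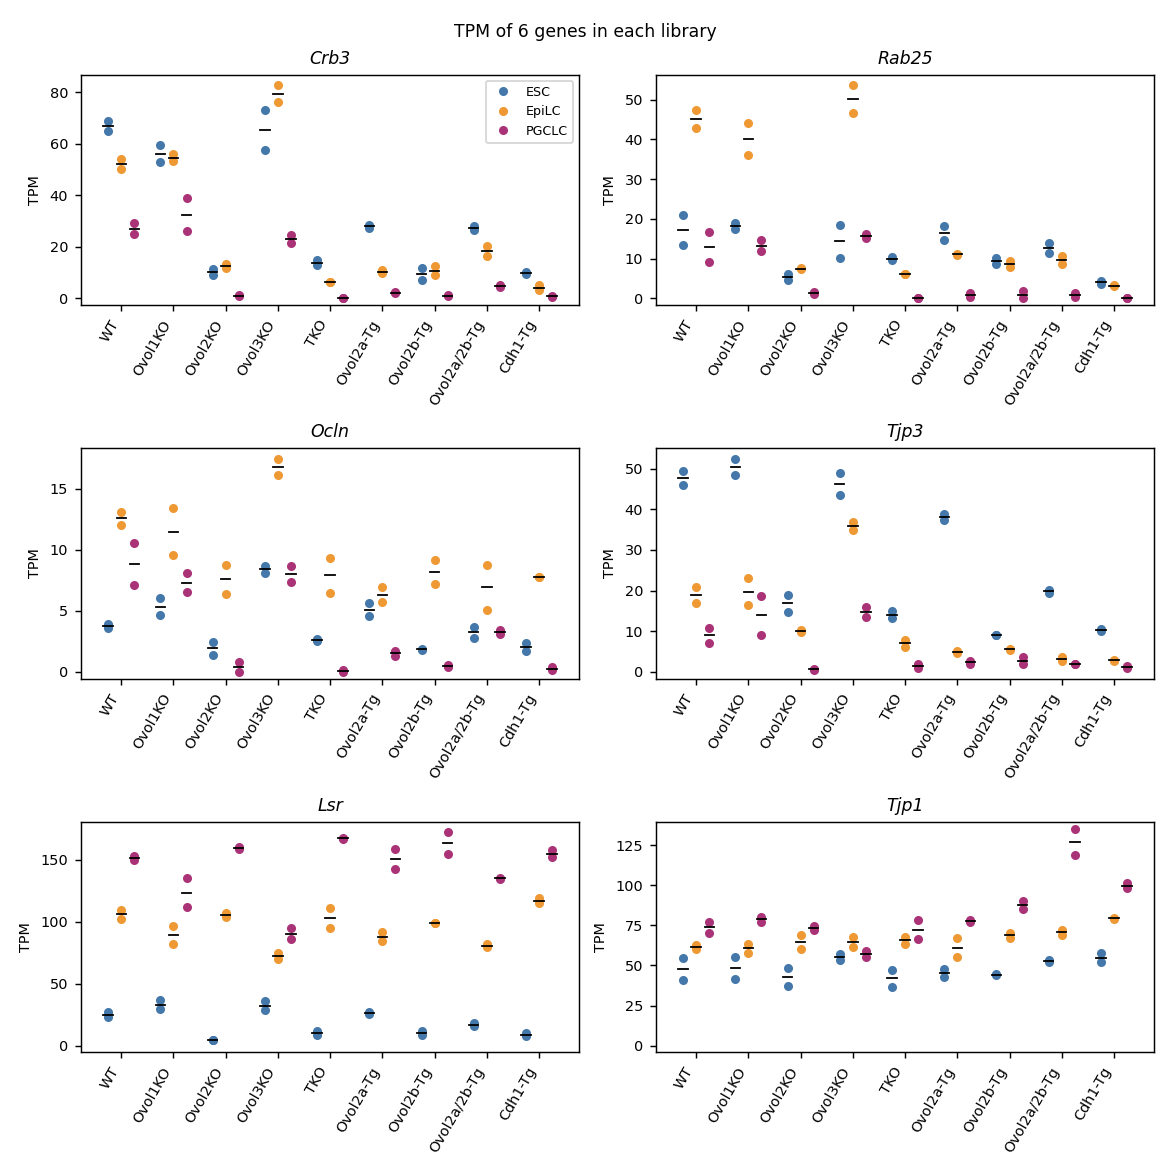
TPM of 6 members (panels) in every library, by line (x axis) and stage (colour); points are libraries and bars are means of 2. Crb3 is below WT at all 3 stages of Ovol2KO and TKO, Ocln is near 0 in their PGCLC, and Lsr is low in their ESC and high in their PGCLC. Of the 6, Tjp1 has the smallest range (1.59 log2 units over the group means) and is highest in PGCLC of Ovol2a/2b-Tg and Cdh1-Tg.

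Fewer members were called in the Ovol1KO and Ovol3KO libraries. In Ovol1KO PGCLC 0 members were called by limma either way, with 3 lower and 4 higher at an unadjusted p under 0.05 and 0 called with limma-voom, where 0.493% of all genes were called higher and 0.173% lower. In Ovol3KO PGCLC 2 members were lower and both were desmosomal, a share not above that of all genes (8.5% called lower and 4.34% higher). Dsp stood at 17.0 and 10.4 TPM against 119 and 92.6 in WT, lower by 2.88 ± 0.19 (limma adjusted p = 5.22e-08). Dsc2 stood at 3.95 and 1.84 TPM against 21.9 and 20.2, lower by 2.55 ± 0.21 (limma adjusted p = 2.65e-07). No library of Ovol3KO overlapped WT for either gene. Crb3 (21.5 and 24.6 TPM), Ocln (7.32 and 8.66) and Rab25 (15.2 and 16.1) remained near their WT levels. In these libraries the mesoderm list summed to 67.5 to 172 TPM, with 1 of 8 genes at 0, against 1774 to 1863 in WT, and the germ cell list to 335 to 352, and their part in the 2 falls was not tested. At an unadjusted p under 0.05 in limma, 14 members were lower and 4 higher in Ovol3KO, and limma-voom called 2 lower and 0 higher. The members' median log2 fold change was -0.26, against -0.12 over all tested genes.

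PGCLC of the transgenic lines also had lower members and 0 higher ones against WT. The counts were 11 lower in Cdh1-Tg, 6 in Ovol2a/2b-Tg, 10 in Ovol2b-Tg and 10 in Ovol2a-Tg. Of all genes, 4.3% were called lower and 5.56% higher in Cdh1-Tg, 2.95% and 4.68% in Ovol2a/2b-Tg, 3.14% and 5.16% in Ovol2b-Tg, and 1.33% and 2.09% in Ovol2a-Tg. At an unadjusted p under 0.05 in limma, 6, 7, 3 and 1 members were higher in these lines in the same order, and limma-voom called 0 higher in each. Crb3 stood at 0.552 and 0.966 TPM in Cdh1-Tg, 5.24 and 4.52 in Ovol2a/2b-Tg, 1.34 and 0.811 in Ovol2b-Tg and 2.57 and 2.04 in Ovol2a-Tg, all below the 25.1 and 29.1 of WT. The log2 differences from WT were -4.01 ± 0.24, -2.26 ± 0.24, -3.77 ± 0.24 and -3.09 ± 0.24 in that order. Rab25 was at 0 in both Cdh1-Tg libraries, at least 26.5-fold lower than WT by the same limit of 3 reads. It stood at 1.49 and 0.247 TPM in Ovol2a/2b-Tg, 0.195 and 1.77 in Ovol2b-Tg and 1.48 and 0.444 in Ovol2a-Tg. Pkp3 fell by 2.91 ± 0.26 in Cdh1-Tg and by 2.17 ± 0.26, 2.46 ± 0.26 and 2.25 ± 0.26 in the Ovol2 lines in the same order. In Ovol2a/2b-Tg the fall of Ocln, 1.18 ± 0.27, was not called with a pseudocount of 0.1 (limma adjusted p = 0.192) or without WT replicate 2 (0.0501), and in Ovol2a-Tg that of Tjp3, 1.56 ± 0.31, was not called without WT replicate 2 (0.0542). The trophoblast list summed to 1143 to 1316 TPM in Ovol2b-Tg and 430 to 816 in Ovol2a-Tg, and its part in these counts was not tested.

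In Cdh1-Tg PGCLC, where Cdh1 stood above its WT level, 11 of the 32 members were lower than in WT and 21 were not called. Ocln was at 0.150 and 0.408 TPM, Marveld3 at 0.0995 and 0.0581 and Cgn at 8.17 and 8.02, which were falls of 2.93 ± 0.27, 2.22 ± 0.25 and 1.81 ± 0.16 from WT. Jup, whose product binds E-cadherin, was at 18.1 and 19.1 TPM and fell by 2.16 ± 0.09. Against TKO 0 members were called either way in Cdh1-Tg, where 0.992% of all genes were called higher and 1.3% lower. At an unadjusted p under 0.05 in limma 12 members were higher and 3 lower, and limma-voom called 0. Pkp2 differed from TKO by 0.81 ± 0.11 and Jup by -0.58 ± 0.09, both under the fold required. The trophoblast list summed to 893 to 924 TPM and the fibroblast list to 248 to 269 in Cdh1-Tg PGCLC.

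Of the transgenic lines, Ovol2a/2b-Tg had the most members higher than in TKO. The count was 8 higher and 0 lower, with 4.33% of all genes called higher and 4.04% lower. Crb3 was higher by 2.35 ± 0.24 (limma adjusted p = 3.75e-06), Cgn by 2.05 ± 0.16, Ocln by 1.98 ± 0.27, Llgl2 by 1.82 ± 0.11, Marveld2 by 1.69 ± 0.18 and Dsg2 by 1.36 ± 0.11. Ppl and Pkp2 were the other two. Llgl2 stood at 59.3 and 66.6 TPM, beside 60 and 62.3 in WT, and Cgn at 22.1 and 29.4, beside 30.5 and 31.0. Pkp3 stood at 1.47 and 1.03 TPM, above its TKO values of 0.509 and 0.541, and was not called against TKO (0.55 ± 0.26). Tjp3 stood at 1.97 and 1.88 TPM, beside 1.85 and 0.930 in TKO, and was not called (0.32 ± 0.31). Both were below their WT means of 9.08 and 8.99 TPM. Lower members at an unadjusted p under 0.05 in limma numbered 3, and limma-voom called 0 lower. The trophoblast list summed to 546 to 560 TPM in Ovol2a/2b-Tg, between WT and TKO, and its part in these differences was not tested.

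Ovol2a-Tg had 3 members higher than TKO and 0 lower, with 1.89% of all genes called higher and 1.41% lower. They were Crb3, by 1.52 ± 0.24, Ocln, by 1.21 ± 0.27, and Cgn, by 1.06 ± 0.16. The count was 6 with a pseudocount of 0.1 and 6 on recovered reads. The call of Ocln was lost without TKO replicate 1 (limma adjusted p = 0.0575) and without Ovol2a-Tg replicate 1 (0.0913), and the change of Cgn was 0.82 without that Ovol2a-Tg library. In Ovol2b-Tg 0 members were called against TKO, with 13 higher and 0 lower at an unadjusted p under 0.05 in limma and 0 called by limma-voom, in a comparison where 0.229% of all genes were called higher and 0.125% lower. Its nearest member was Llgl2, higher by 0.89 ± 0.11, at 31.3 and 33.7 TPM against 17.8 and 16.4 in TKO. Between Ovol2a-Tg and Ovol2b-Tg themselves 0 members were called, with 7 higher and 1 lower in Ovol2a-Tg at an unadjusted p under 0.05, where 0.368% of all genes were called higher and 0.562% lower. Limma-voom called 2 members higher in Ovol2a-Tg. Ocln differed by 0.74 ± 0.27 and Crb3 by 0.68 ± 0.24 in limma, so no member passed the test between the 2 lines, which does not show that they act alike.

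**Figure D4:**
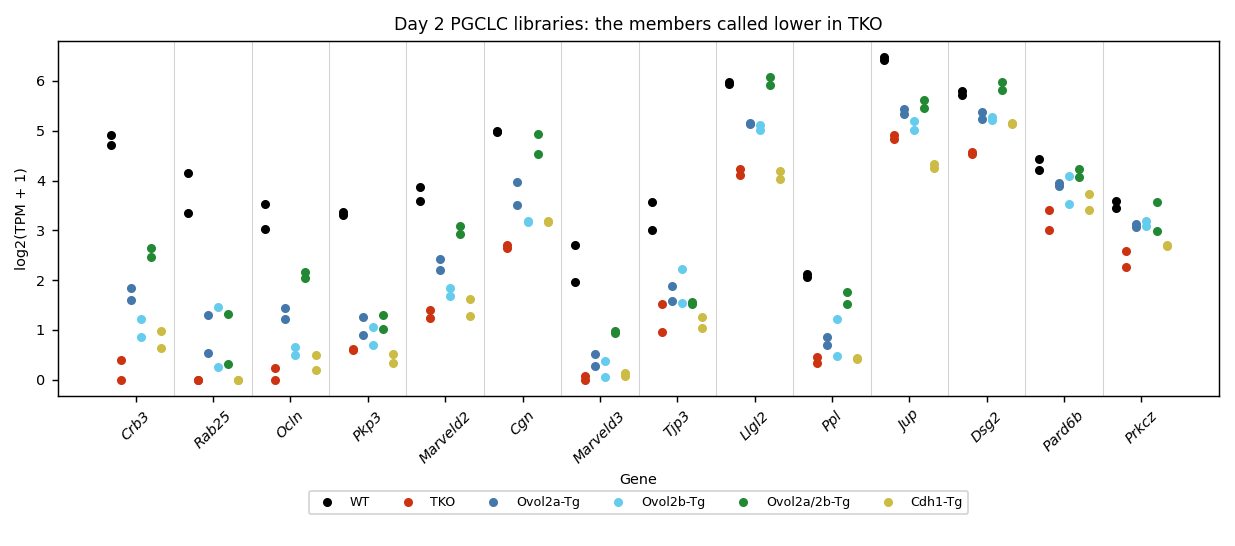
Log2(TPM + 1) in each PGCLC library of WT, TKO and the 4 transgenic lines (colours) for the 14 members called lower in TKO (x axis, by size of fall). Ovol2a/2b-Tg points lie near WT for Llgl2, Dsg2 and Cgn and far below WT for Rab25, Pkp3 and Tjp3, while Cdh1-Tg points lie near TKO for most genes.

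TKO and Ovol2KO PGCLC were also compared directly. By limma 0 members were called, with 9 lower and 4 higher in TKO at an unadjusted p under 0.05 and 0 called by limma-voom, where 0.714% of all genes were called higher and 0.271% lower. Rab25 was lower in TKO by 1.21 ± 0.40 without passing the test (limma adjusted p = 0.091). The p threshold but not the fold was passed by 4 members lower in TKO and 2 higher. Dsg2 was lower by 0.77 ± 0.11 and Llgl2 by 0.65 ± 0.11 (limma adjusted p = 0.00059 and 0.0018). Crb3 was lower by 0.86 ± 0.24 and Marveld2 by 0.73 ± 0.18 (limma adjusted p = 0.0499 and 0.030). Dsc2 was higher by 0.79 ± 0.21 and Pkp2 by 0.39 ± 0.11 (limma adjusted p = 0.043 for each).

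EpiLC, the stage before PGCLC, had fewer called members than PGCLC in most lines. All genes likewise had fewer calls in EpiLC in every line. In TKO, for example, 2.3% were called either way in EpiLC, against 4.95% lower and 5.58% higher in PGCLC. Against WT EpiLC, 3 members were lower in each of Ovol2KO, TKO and the 3 lines with an Ovol2 transgene, and 6 in Cdh1-Tg, and 1 was higher in Cdh1-Tg, which makes 21 lower and 1 higher over the 8 lines. Called either way were 1.42% of all genes in Ovol2KO, 2.3% in TKO, 6.38% in Cdh1-Tg, 4.5% in Ovol2a/2b-Tg, 1.67% in Ovol2b-Tg and 2.06% in Ovol2a-Tg. Crb3 and Rab25 were lower in all 6. Rab25 stood at 47.3 and 42.7 TPM in WT EpiLC, 7.58 and 7.29 in Ovol2KO and 6.08 and 6.15 in TKO. It fell by 2.45 ± 0.13 in Ovol2KO and fell by 2.69 ± 0.13 in TKO (limma adjusted p = 5.34e-09 and 1.91e-09). Crb3 stood at 54 and 50.4 TPM in WT, 13.4 and 11.9 in Ovol2KO and 6.26 and 6.44 in TKO, falls of 1.96 ± 0.16 and 2.85 ± 0.16. The WT values lay above those of both lines for either gene. The other member lower was Llgl2 in Ovol2KO, by 1.12 ± 0.08, and Tjp3 in TKO (1.30 ± 0.17), Ovol2a/2b-Tg (2.27 ± 0.17), Ovol2b-Tg (1.58 ± 0.17) and Ovol2a-Tg (1.74 ± 0.17). Cdh1-Tg EpiLC had Rab25, Crb3, Tjp3, Llgl2, Jup and Pkp3 lower and Cxadr higher by 1.45 ± 0.14, at 37.5 and 36.6 TPM against 13.5 and 12.3. By limma 0 members were called in Ovol1KO or Ovol3KO EpiLC, with 0.486% and 2.85% of all genes called. At an unadjusted p under 0.05, 1 was lower and 4 higher in Ovol1KO and 2 lower and 13 higher in Ovol3KO, and limma-voom called 0 in Ovol1KO and 1 higher in Ovol3KO. Cdh1 stayed at 370 and 364 TPM in Ovol2KO and 336 and 350 in TKO, against 461 and 451 in WT EpiLC. The 6 mesenchymal regulators summed to 7.48 to 8.56 TPM in WT EpiLC, 21.7 to 26.1 in Ovol2KO and 32.4 to 34.4 in TKO, and their part was not tested.

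In ESC the members called lower included some that were not called lower later in the same line. The counts were 6 lower in Ovol2KO, 5 in TKO, 7 in Cdh1-Tg, 3 in Ovol2a/2b-Tg, 7 in Ovol2b-Tg and 1 in Ovol2a-Tg, and 1 higher in Ovol3KO, or 29 lower and 1 higher over the 8 lines. Called either way were 3.36% of all genes in Ovol2KO, 1.85% in Ovol3KO, 4.08% in TKO, 6.4% in Cdh1-Tg, 4.31% in Ovol2a/2b-Tg, 5.56% in Ovol2b-Tg and 4.95% in Ovol2a-Tg. Crb3 was lower in 6 lines, at 11.6 and 9.05 TPM in Ovol2KO and 12.8 and 15.1 in TKO against 69.0 and 64.9 in WT (falls of 2.59 ± 0.18 and 2.19 ± 0.18). Lsr was lower by 2.19 ± 0.18 in Ovol2KO (limma adjusted p = 1.77e-06), at 4.48 and 4.80 TPM against 23.0 and 26.8, and by 1.23 ± 0.18 in TKO. Dsp was lower by 1.84 ± 0.23 and 2.04 ± 0.23, at 0.959 and 1.5 TPM in Ovol2KO and 1.14 and 0.716 in TKO against 7.48 and 6.37. Its mean in WT EpiLC was 1.13 TPM, so a fall at that stage could hardly be called. Tjp3 was lower by 1.70 ± 0.12 in TKO. In Cdh1-Tg ESC the largest falls were those of Crb3, Tjp3 and Dsp, and in Ovol2b-Tg the same genes led. In Ovol2a-Tg ESC the member was Crb3, lower by 1.23 ± 0.18, and in Ovol2a/2b-Tg they were Crb3, Tjp3 and Cgn, the last of which was not called without Ovol2a/2b-Tg replicate 2 (-0.96). Marveld3 was higher in Ovol3KO ESC, at 6.16 and 8.90 TPM against 2.71 and 2.82, a rise of 1.16 ± 0.21 that was 0.93 and not called without Ovol3KO replicate 2. In Ovol1KO ESC 0 members were called by limma, with 1 lower and 5 higher at an unadjusted p under 0.05 and 0 called by limma-voom, and 0.541% of all genes were called. Formative markers (5 genes) summed to 107 to 109 TPM in WT ESC, 144 to 150 in Ovol2KO, 185 to 225 in TKO and 352 to 360 in Cdh1-Tg, and their part in these falls was not tested.

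Whether the change in a line differed between EpiLC and PGCLC was tested as an interaction over all 54 libraries. The extra fall in PGCLC was called for 8 members in Ovol2KO, 9 in TKO and 4 in Ovol2a-Tg, and an opposite difference for 0 in each. Of all genes, 4.25% had a lower and 3.47% a higher effect in PGCLC for Ovol2KO, 5.17% and 4.24% for TKO, and 1.83% and 1.18% for Ovol2a-Tg. At an unadjusted p under 0.05 in limma the higher members numbered 1, 1 and 0, and limma-voom called 0 in each. Ocln differed less in EpiLC (12.1 and 13.1 TPM in WT, 6.44 and 9.33 in TKO) and its effect in TKO was lower in PGCLC by 2.53 ± 0.34 (limma adjusted p = 5.58e-07). Marveld2 stood at 9.48 and 8.17 TPM in WT EpiLC and 9.27 and 7.57 in TKO EpiLC, and its effect was lower in PGCLC by 2.35 ± 0.24. Pkp3, Crb3, Marveld3, Ppl and Cgn were the others called in both Ovol2KO and TKO, with differences of -1.998 ± 0.35 for Pkp3 and -1.76 ± 0.29 for Crb3 in TKO. Jup and Rab25, although lower in PGCLC of both lines, were not called for the difference between stages. For Jup it was -0.92 ± 0.15 in Ovol2KO and -0.72 ± 0.15 in TKO. Both passed the p threshold (limma adjusted p = 3.87e-05 and 0.00064) but not the fold. For Rab25 it was -0.10 ± 0.42 in Ovol2KO and -1.06 ± 0.42 in TKO (limma adjusted p = 0.92 and 0.073). Rab25 was at 0 in both TKO PGCLC libraries, so its fall there could not be larger on this scale. The WT libraries are shared by these 3 comparisons.

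**Figure D5:**
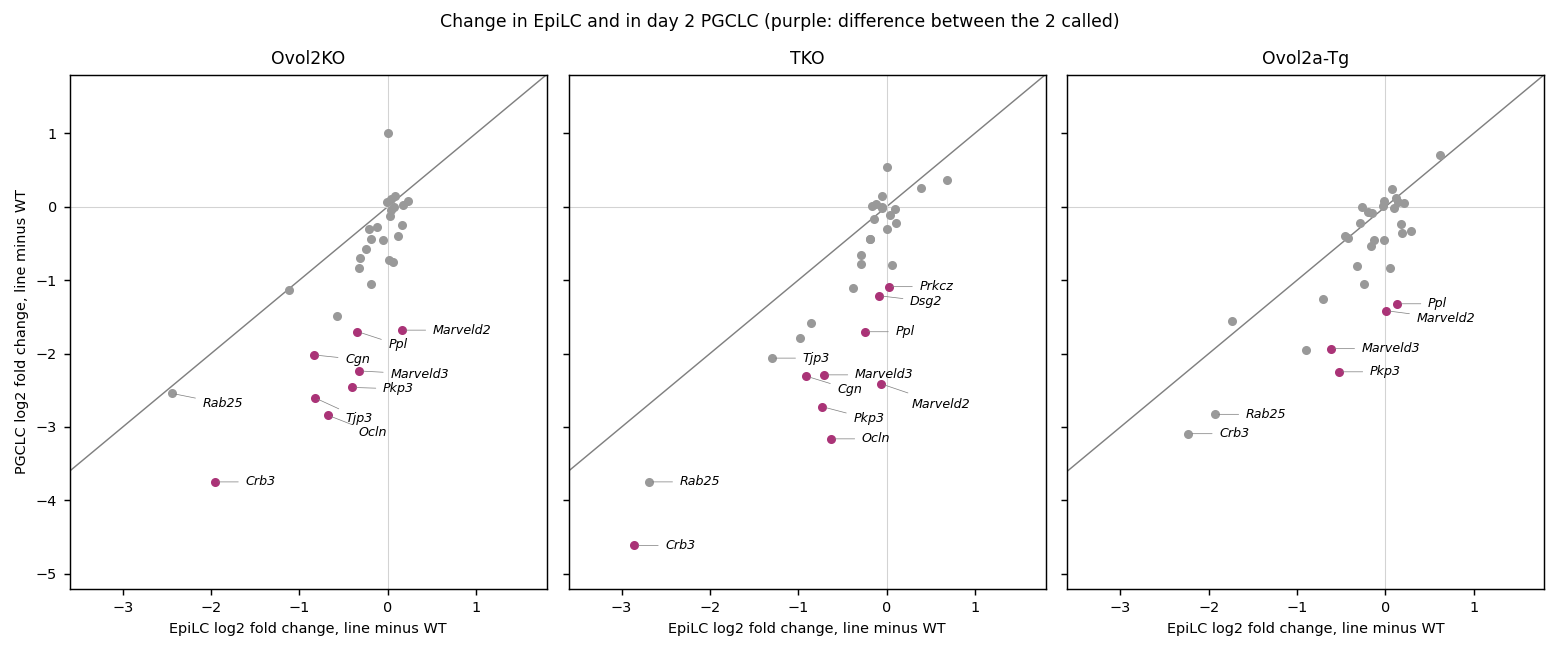
Log2 fold change against WT in EpiLC (x axis) and PGCLC (y axis) for the 32 members in Ovol2KO, TKO and Ovol2a-Tg; the line marks equal change, and purple points are members whose difference between stages was called. Marveld2 lies near 0 in EpiLC and at -2.41 in PGCLC of TKO, while Rab25 lies near the line in Ovol2KO.

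Over the whole list, 14 of the 32 members were called in none of the 24 comparisons of a line with WT. They included the catenins Ctnna1, Ctnnb1 and Ctnnd1, the scaffolds Tjp1, Pard3, Scrib and Dlg3, and Llgl1, Prkci and F11r, with Pkp1, Pkp2, Evpl and Myo5b as the rest. In PGCLC 16 members were called lower in at least 1 line, and 6 of them (Tjp3, Ocln, Marveld3, Crb3, Pkp3 and Rab25) in 6 of the 8 lines. Crb3 was called lower at every stage in the same 6 lines: Ovol2KO, TKO and the 4 transgenic lines. All lines of a stage were set against the same WT pair, so these lines do not count as separate observations. The matching counts over all genes were not made, so the counts in this paragraph only describe the list.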

How the data were processed

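Groups were taken from the sample titles. The deposited values are TPM, per the table's name and values, made by the authors with HISAT2, featureCounts and edgeR on mm10, per the submitters' processing notes; no source used here gives versions, annotation or strand setting, so overlapping and antisense genes cannot be told apart. TPM shows shares of the mRNA, not amounts per cell. The members and gene lists were chosen with earlier results of these data known. Values were tested as log2(TPM + 1) by limma 3.58.1 (R 4.3.3, trend and robust shrinkage) for 14416 genes that reached 1 TPM in 2 or more libraries. Adding 1 makes fold changes of scarce genes smaller. Lines were compared within a stage over 18 libraries (9 residual degrees of freedom). WT stages and differences between stages were tested over 54 libraries (27 residual degrees of freedom).

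The TPM steps gave back whole reads, within 0.02 reads, in 17973 of 17973 genes above 0; these were used for depth, for the limit of 3 reads and for limma-voom, an alternative. Other alternatives were a pseudocount of 0.1, no filter, quantile scaling, a replicate block, each library left out, the Ovol2b-Tg EpiLC pair averaged and, added after seeing the data, the 8 libraries with another cell type tag left out. The fits were tested on simulated data given the same spread for every gene. Recovery of changes was scored only for genes well above the level required for testing. That test therefore does not cover members that fell to near 0 reads. Members with full values were set by a rule: up to 6 called changes each way per stage or PGCLC comparison, up to 3 per line in ESC and EpiLC, and the 8 largest TKO changes by library. Others were named after their values were seen. Promoters are RefSeq windows of the same build, for 19 of 32 members. Figures used matplotlib.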

Additional observations from a re-analysis of the deposited data

Results flagged for a closer look

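Members are listed here because their change against WT differed between PGCLC and EpiLC by limma's interaction test (BH adjusted p under 0.05 over 14416 genes, difference of at least 1 in log2). Values are the PGCLC log2 fold change minus the EpiLC one, and all are negative. In Ovol2KO they were Tjp3 (-1.78), Ocln (-2.17), Marveld2 (-1.84), Ppl (-1.36), Crb3 (-1.79), Cgn (-1.19), Pkp3 (-2.06) and Marveld3 (-1.92). In TKO they were Ocln (-2.53), Marveld2 (-2.35), Ppl (-1.45), Crb3 (-1.76), Dsg2 (-1.13), Cgn (-1.4), Prkcz (-1.11), Pkp3 (-1.998) and Marveld3 (-1.58). In Ovol2a-Tg they were Marveld2 (-1.42), Ppl (-1.45), Pkp3 (-1.72) and Marveld3 (-1.32). The PGCLC pair of Ovol2a-Tg is among the libraries whose cell type tag differs from the title, and the difference of Marveld3 in this line was not called without WT PGCLC replicate 2 (-0.95, limma adjusted p = 0.0547). That pair also had the highest chi-square per degree of freedom of the 27 pairs (10.9), a value that grows with depth. Its trophoblast list summed to 430 TPM in 1 library and 816 in the other. Groups of 2 are too small for the test of a library standing apart from its group.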

How the results depend on the processing

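Of 42 counts of members, those not mentioned here stayed within 1.5 times the reported value under every alternative run. With a pseudocount of 0.1, members lower from WT EpiLC to PGCLC numbered 4 (2 reported), higher in Ovol2KO PGCLC 1 (0), higher than TKO 1 in Cdh1-Tg (0), 1 in Ovol2b-Tg (0) and 6 in Ovol2a-Tg (3), lower in TKO than in Ovol2KO 3 (0), and higher over the 8 lines 2 in EpiLC (1) and 3 in ESC (1). With quantile scaling the WT fall count was 5 and 1 member was higher in Ovol2KO PGCLC. With limma-voom on recovered reads these were 4 and 1, with 6 members higher in Ovol2a-Tg than in TKO, 2 higher in Ovol2a-Tg than in Ovol2b-Tg (0), 7 with a lower effect in PGCLC than in EpiLC of Ovol2a-Tg (4), and 3 and 4 higher over the lines in EpiLC and ESC. Leaving out 1 library at a time gave 1 to 4 for the WT fall count (1 without WT EpiLC replicate 2 or WT PGCLC replicate 1, 4 without either of the others), 0 to 1 for members higher in Ovol2KO PGCLC, in Cdh1-Tg PGCLC and in the Ovol2KO interaction, 0 to 1 for members lower in TKO than in Ovol2KO, and 1 to 2 in EpiLC (2 without WT replicate 2) and 1 to 4 in ESC (4 without WT replicate 2, 2 without Ovol3KO replicate 1) for members higher over the lines. For named genes, 1286 of 1301 recomputed values kept direction and call, 15 lost the call and 0 reversed. Replicate numbers did not pair the libraries: deviations of same-numbered libraries correlated at -0.208 to 0.197 in ESC, -0.063 to 0.058 in EpiLC and -0.083 to 0.176 in PGCLC. With the replicate block every count of members was as reported, for example 14 lower in TKO PGCLC. Averaging the Ovol2b-Tg EpiLC pair or leaving out the 8 libraries with another cell type tag moved no count by over 1.5 times. The causes were not tested. Depth limits Marveld3, Rab25, Myo5b, Evpl and Pkp1, which had few reads. Ocln, Tjp3, Pkp3, Ppl and Crb3 also had few reads in PGCLC of Ovol2KO and TKO. For Ocln these were 12 and 0 in Ovol2KO and 0 and 3 in TKO. For Tjp3 they were 11 and 2 in Ovol2KO and 8 and 17 in TKO.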
